A study of Mus musculus with 3 samples.

Results

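Matrix metalloproteinases (MMPs) and their tissue inhibitors (TIMPs) were examined in ST2 cells, a stromal line derived from mouse bone marrow. The 10 genes were selected by name (Mmp2, Mmp3, Mmp9, Mmp10, Mmp13, Mmp14, Mmp19, Timp1, Timp2 and Timp3) from the 51826 rows of the deposited expression table, with earlier results of these data known, so their values are a description and no test was made on them. Polyadenylated RNA was sequenced from 3 libraries. Control cells received empty vector with control siRNA, NELL2 overexpression cells received a NELL2 construct with control siRNA, and Fn1 knockdown cells received empty vector with siRNA against Fn1, so that every library came from cells given a plasmid and an siRNA at 30 nM. The transfections were transient, in 1 cell line, and each group had 1 library. No difference below therefore has a replicate check, and each is a difference between libraries. The comparisons addressed which genes differ when NELL2 is raised or when fibronectin is lowered.

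MMPs are zinc-dependent endopeptidases that cut collagens, fibronectin, proteoglycans and other matrix proteins outside the cell, and most are made as inactive proenzymes that other proteinases activate. TIMPs bind the active site of MMPs and block it. In bone, stromal cells and osteoblasts are known sources of collagenase and gelatinases, and several MMP genes that lie side by side on 1 chromosome are known to be induced through AP-1 sites close to their start sites.

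Levels are given as FPKM, in which fragments are divided by the length of the transcript and by the mapped total of the library, so that levels of different genes can be set side by side. The estimated depth was between 23000000 and 24200000 fragments per library. Nell2 was at 0.640 FPKM in the control, 326 FPKM in the NELL2 overexpression and 1.06 FPKM in the Fn1 knockdown library. Fn1, the gene of fibronectin, was at 2802, 2489 and 137 FPKM in the same order, so both targeted genes moved in the direction of the labels. All 11 markers of marrow stromal cells (Col1a1, Col1a2 and others) reached 1 FPKM, with sums between 4754 and 5565 FPKM, whereas 5 of 6 neutrophil markers were listed at 0 in every library.

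The promoters of Mmp13, Mmp3 and Mmp10 are shown because these 3 genes had the highest ratios of NELL2 overexpression to control among the 10. Each sequence is the 200 bases just upstream of the RefSeq start site, 5′ to 3′ on the plus strand of GRCm38.p6, at chr9:7272314-7272513 for Mmp13, chr9:7445622-7445821 for Mmp3 and chr9:7502142-7502341 for Mmp10. Capitals mark the letters of the motifs searched.
Mmp13: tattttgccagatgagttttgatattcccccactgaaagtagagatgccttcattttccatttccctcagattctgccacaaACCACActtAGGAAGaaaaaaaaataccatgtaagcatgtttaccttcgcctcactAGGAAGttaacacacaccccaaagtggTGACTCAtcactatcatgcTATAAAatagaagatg
Mmp3: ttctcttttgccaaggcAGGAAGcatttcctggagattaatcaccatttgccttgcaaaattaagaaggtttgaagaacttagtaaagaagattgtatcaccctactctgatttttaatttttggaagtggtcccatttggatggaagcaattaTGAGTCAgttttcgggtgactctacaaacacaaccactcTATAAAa
Mmp10: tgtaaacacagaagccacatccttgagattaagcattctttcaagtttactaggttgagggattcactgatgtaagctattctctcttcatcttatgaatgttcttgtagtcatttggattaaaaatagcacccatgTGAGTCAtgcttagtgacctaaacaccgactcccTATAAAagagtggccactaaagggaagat

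Each motif was sought on both strands in windows from 250 bases before to 50 bases after the start. AP-1, the site of Fos and Jun dimers, was written as TGANTCA. The core bound by ETS factors was searched as the letters AGGAAG, and the core bound by RUNX factors, among them the osteoblast regulator Runx2, as TGTGGT. The TATA box, which positions the start of transcription, was taken as TATAAA, and an NF-kB motif was searched as well. RefSeq promoter windows were matched for 7 of the 10 genes. Mmp3, Mmp10 and Mmp13 each held both an AP-1 motif and a TATA box, and the windows of Mmp14, Timp1, Timp2 and Timp3 held neither. The pair was not particular to these 3 genes, for it was found in 8 of the 10 Mmp genes of their chromosome 9 cluster, among them Mmp12, Mmp1b, Mmp1a, Mmp20 and Mmp7, all 5 below 1 FPKM in every library. Over all 32851 windows, AP-1 letters were found in 7.81%, TATA letters in 13.6% and both in 1.54%. The AP-1 letters began 35 bases before the start in Mmp13, 46 in Mmp3 and 63 in Mmp10. TATA letters began 16, 7 and 29 bases before it in the same order. All these distances depend on the RefSeq start of each gene, which was not checked, so they may not be comparable between genes. ETS letters were found in 5 of the 7 windows (Mmp3, Mmp13, Mmp14, Timp1 and Timp3) against 35.4% of all windows, and RUNX letters in 2 (Mmp13 and Mmp14) against 16.8%. No window of these genes held the NF-kB letters, which were in 4.51% of all windows. No match in these windows overlapped another. A match describes letters only and says nothing of binding in these cells.

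**Figure D1:**
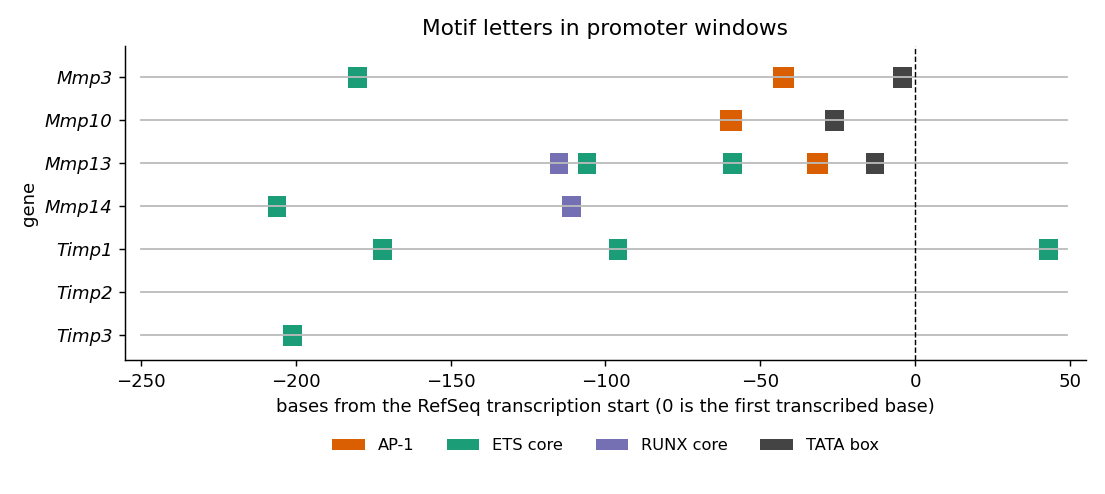
Motif letters in the RefSeq promoter windows of the 7 genes with an entry, drawn to scale in bases from the start site, 1 line per gene. Orange (AP-1) and dark grey (TATA box) marks stand together in Mmp3, Mmp10 and Mmp13 and not in the other windows drawn; 5 cluster genes below 1 FPKM, which are not drawn, hold the same pair.

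The inhibitors were the most abundant transcripts of the group. Timp2, which inhibits MMPs and also takes part in the activation of pro-MMP2, was at 1113 FPKM in control cells, 1077 FPKM after NELL2 overexpression and 1039 FPKM with Fn1 knockdown. Timp1, a secreted inhibitor, was at 875, 1010 and 801 FPKM. Timp3, which is bound to the matrix and also inhibits ADAM proteinases, was at 333, 320 and 463 FPKM. Timp2 and Timp1 stood among the 43 most abundant rows in every library. Timp2 was close to level across the libraries, Timp1 was highest with NELL2 overexpression, and Timp3 was highest with Fn1 knockdown.

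Of the proteinases, the gelatinase Mmp2 was at 305 FPKM in control cells, 316 FPKM after NELL2 overexpression and 246 FPKM with Fn1 knockdown. Mmp14, the membrane-anchored proteinase that activates pro-MMP2, was at 172, 170 and 180 FPKM. Together Mmp2 and Mmp14 made up 93.3%, 90.1% and 93.0% of the summed FPKM of the 7 MMP genes. Mmp13, the main collagenase of rodent bone, came next at 21.8, 33.3 and 19.3 FPKM and was highest with NELL2 overexpression. Mmp19, a secreted MMP outside the chromosome 9 cluster, was at 7.19, 7.98 and 4.90 FPKM and was lowest with Fn1 knockdown. The stromelysins Mmp3 and Mmp10, which cut proteoglycans, fibronectin and other matrix glycoproteins, were lower. Mmp3 was at 3.22, 8.99 and 3.55 FPKM, highest with NELL2 overexpression. Mmp10 was at 1.76, 2.86 and 4.46 FPKM, highest with Fn1 knockdown.

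The gelatinase Mmp9 was near the floor, at 0.149 FPKM in control cells, 0.116 FPKM after NELL2 overexpression and 0.0259 FPKM with Fn1 knockdown. These values correspond to about 3, 2 and 0 fragments at the median length of its coding transcripts, or 11, 9 and 2 at the longest, so no ratio is given, and Mmp9 was the only one of the 10 genes that did not reach 1 FPKM in any library. Mmp9 is a known product of osteoclasts and neutrophils. Of 10 macrophage and osteoclast markers in the table, 5 reached 1 FPKM, Dcstamp and Calcr were listed at 0 in all libraries, and the summed level was 126, 138 and 113 FPKM, most of it Ctsk, which stromal cells can also express. The Mmp9 values fix no direction at this depth. The macrophage markers Cd68 (4.08, 3.54 and 1.57 FPKM) and Lyz2 (11.8, 13.9 and 7.22 FPKM) were lowest with Fn1 knockdown, with log2 differences from the control of -0.98 and -0.64. Acp5 was also lower (-0.34), whereas Ctsk (-0.07) and the macrophage receptor gene Csf1r (0.0016) were near the control. Csf1r was at 1.06 FPKM in the control, 1.23 FPKM after NELL2 overexpression and 1.06 FPKM with Fn1 knockdown, so the list did not move as 1. Ptprc, the pan-leukocyte marker, was at 0.0633 FPKM or less in every library. The part of these cells in the Mmp9 values was not tested.

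**Figure D2:**
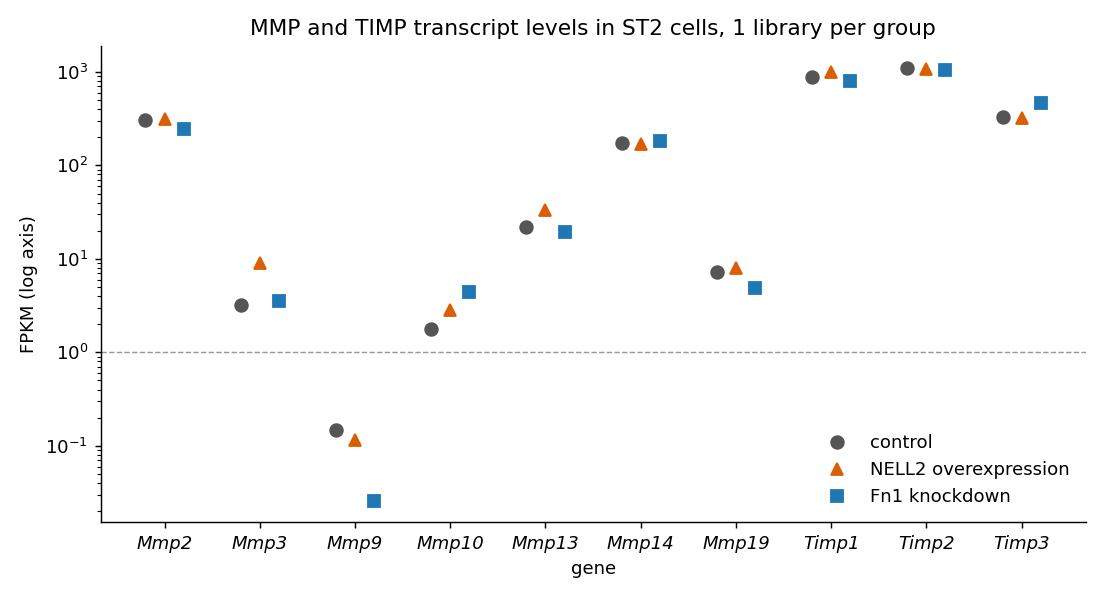
FPKM on a log axis of the 10 genes in the control (circles), NELL2 overexpression (triangles) and Fn1 knockdown (squares) libraries, 1 point per library, with a dashed line at 1 FPKM. Timp2, Timp1 and Timp3 lead, Mmp3 and Mmp13 are highest in the NELL2 overexpression library, Mmp10 is highest in the Fn1 knockdown library, and all 3 Mmp9 values lie below the line.

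The order of the 6 most abundant genes was the same in all 3 libraries, Timp2, Timp1, Timp3, Mmp2, Mmp14 and Mmp13. Some neighbours in that order lay close together, and with 1 library a group no spread is at hand to separate them: Timp3 was 1.09 times Mmp2 in the control and 1.01 times with NELL2 overexpression. The places below Mmp13 changed. Mmp19 was followed by Mmp3 and Mmp10 in the control, Mmp3 stood just above Mmp19 (1.13 times) with NELL2 overexpression, and Mmp10 stood above Mmp3 (1.26 times) with Fn1 knockdown.

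In the comparison of NELL2 overexpression with the control, Mmp3 had the highest ratio of the 10 genes. Its level with NELL2 overexpression was 279% of the control, a difference of 1.24 in log2(FPKM + 1), and it stood 29th from the top of 12572 genes. A gene was called when log2(FPKM + 1) differed by 1 or more, 2-fold on this scale, and FPKM reached 1 in either library. Mmp3 was the 1 gene called among the 9 that reached 1 FPKM, where 0.652% of all genes tested were called in either direction. The call depended on the scale, since with a pseudocount of 5 the log2 difference of Mmp3 was 0.77 and none of the 9 was called. Mmp13 reached 153% of the control (log2 difference 0.59) and Mmp10 162% (log2 difference 0.48), both below that line. At a 1.5-fold cutoff Mmp3 and Mmp13 passed, where 2.59% of all genes did. The scale understates the ratio of genes of low FPKM, which is why Mmp10 has a higher percentage but a smaller log2 difference than Mmp13.

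Fragment numbers behind these ratios could be estimated for the 3 genes because each has a single annotated transcript. Mmp3 had about 133 fragments in the control and 384 with NELL2 overexpression, a ratio of 2.79 with a 95% interval of 2.29 to 3.44. Mmp13 had about 1343 and 2111 fragments, a ratio of 1.53 (1.42 to 1.63). Mmp10 had about 70 and 117 fragments, a ratio of 1.62 (1.20 to 2.21). The intervals cover counting error only and hold nothing of the variation between cultures.

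The other genes differed little between NELL2 overexpression and control. Timp1 (log2 difference 0.21), Mmp19 (0.13) and Mmp2 (0.05) were slightly higher, and Mmp14 (-0.02), Timp2 (-0.05) and Timp3 (-0.06) slightly lower. These 6 lay inside the central 95% of all genes tested, which ran from -0.40 to 0.48, as did Mmp10, just below the upper end, whereas Mmp3 and Mmp13 lay above it. The median over the 9 genes was 0.13, and over all genes it was 0.0072.

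The Fn1 knockdown library shares its control with the comparison above, so the values of each are given side by side and not as independent evidence. Mmp10 was the gene furthest from the control, at 253% of it. Its log2 difference of 0.98 fell just short of the 2-fold line, and it stood 91st from the top of 12574 genes. About 70 fragments in the control and 186 with Fn1 knockdown gave a ratio of 2.53 (95% counting interval 1.91 to 3.38). None of the 9 genes was called, where 1.23% of all genes were. At a 1.5-fold cutoff Mmp10 alone passed, where 6.24% of all genes did. Mmp10 lies so near the line that the scale decides the call, since its log2 difference was 1.29 with a pseudocount of 0.1 and 1.18 on a TPM scale, both past 1.

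Timp3 was the next highest with Fn1 knockdown, at 139% of the control (log2 difference 0.47). Mmp19 was lowest, at 68.2% (-0.47), followed by Mmp2 at 80.6% (-0.31). These 3 differences lay inside the central 95% of all genes, which ran from -0.64 to 0.64. Mmp3, whose ratio led with NELL2 overexpression, was at 110% of the control (0.11), and its counting interval of 0.874 to 1.41 included 1. Mmp13 (-0.17), Timp1 (-0.13), Timp2 (-0.10) and Mmp14 (0.07) differed less than Mmp2 did. The median over the 9 genes was -0.10, and over all genes -0.0028. Exons of Timp3 overlap Syn3 and those of Mmp19 overlap Tmem198b on the opposite strand (GENCODE M21), and whether strand was used in counting is not given in the sources used here, so reads of these pairs cannot be told apart.

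Set directly against NELL2 overexpression, the Fn1 knockdown library held less Mmp3, Mmp13 and Mmp19. Mmp3 was at 39.5% (log2 difference -1.14) and was the 1 gene called of the 9, where 1.29% of all genes were called in either direction. With a pseudocount of 5 its log2 difference was -0.71 and it was not called. At a 1.5-fold cutoff, Mmp13 (57.9%, -0.76) and Mmp19 (61.4%, -0.61) passed as well, where 6.4% of all genes did. Timp3 (0.53) and Mmp10 (0.50) were higher with Fn1 knockdown. The median over the 9 genes was -0.33, with 6 lower and 3 higher, and over all genes it was -0.0096. This comparison uses the same NELL2 overexpression and Fn1 knockdown libraries as those above and adds no further sample.

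**Figure D3:**
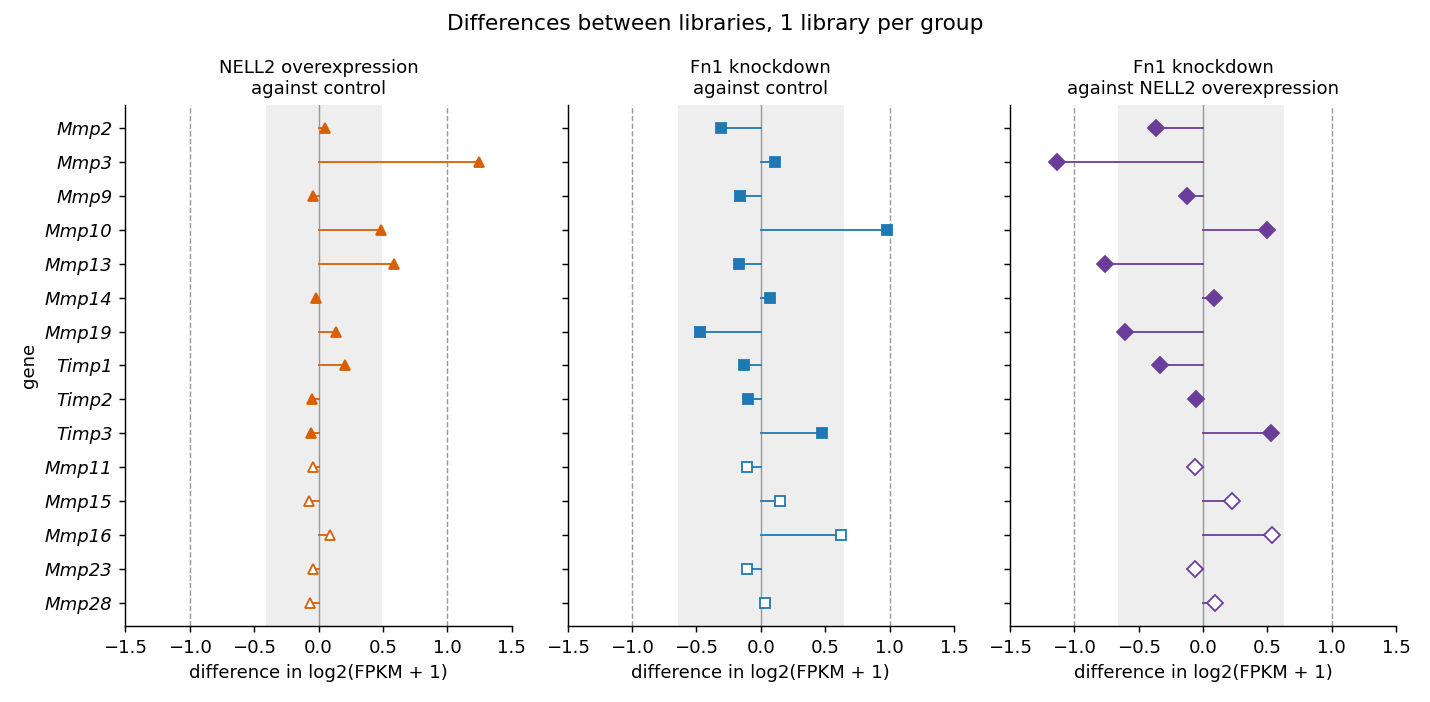
Differences in log2(FPKM + 1) for the 10 genes (filled) and 5 further MMP genes at 1 FPKM or more (open) in the 3 comparisons, with dashed lines at 2-fold and grey bands for the central 95% of all genes tested. Mmp3 passes the 2-fold line in the left and right panels (1.24 and -1.14), and Mmp10 stops just short of it in the middle panel (0.98).

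The balance of inhibitor to proteinase transcripts was described by sums. The 7 MMP genes summed to 510 FPKM in control cells, 539 after NELL2 overexpression and 458 with Fn1 knockdown, and the 3 TIMP genes to 2322, 2407 and 2303 FPKM. The summed TIMP level was 4.55, 4.47 and 5.03 times the summed MMP level, highest with Fn1 knockdown. The MMP sum per TIMP sum was 0.220, 0.224 and 0.199, and without Mmp2 and Timp2, the most abundant of each class, it was 0.170, 0.168 and 0.168. Mmp3, Mmp10 and Mmp13 summed to 26.8, 45.2 and 27.3 FPKM, or 5.25%, 8.39% and 5.96% of the MMP sum. Within those sums the makeup differed, for Mmp10 per Mmp3 was 0.547 in control cells, 0.318 after NELL2 overexpression and 1.26 with Fn1 knockdown.

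Mmp13, Mmp3 and Mmp10 lie in 1 cluster on chromosome 9 (GRCm38, GENCODE M21), a span of 427 kb from 7272514 to 7699585 that holds 10 Mmp genes of the table and no other protein-coding gene of it (Mmp1a is annotated as a polymorphic pseudogene). Mmp13 is at 9:7272514-7283331, Mmp3 at 9:7445822-7455975 and Mmp10 at 9:7502352-7510240, all on the plus strand. The other 7 genes of the span (Mmp12, Mmp1b, Mmp1a, Mmp8, Mmp27, Mmp20 and Mmp7) stayed below 1 FPKM, and Mmp20 and Mmp7 were listed at 0 in every library. None of the 6 genes listed beside the cluster (Dync2h1, Dcun1d5, Tmem123, Birc2, Birc3 and Yap1) was called. Among all genes tested, 0.652% were called with NELL2 overexpression and 1.23% with Fn1 knockdown. The log2 differences of the 6 ran from -0.14 to 0.21 with NELL2 overexpression and from -0.10 to 0.12 with Fn1 knockdown. Mmp3 and Mmp10 are close relatives, yet their annotated transcripts shared only 5 words of 100 bases, 0.29% of those of Mmp3 and 0.31% of those of Mmp10.

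**Figure D4:**
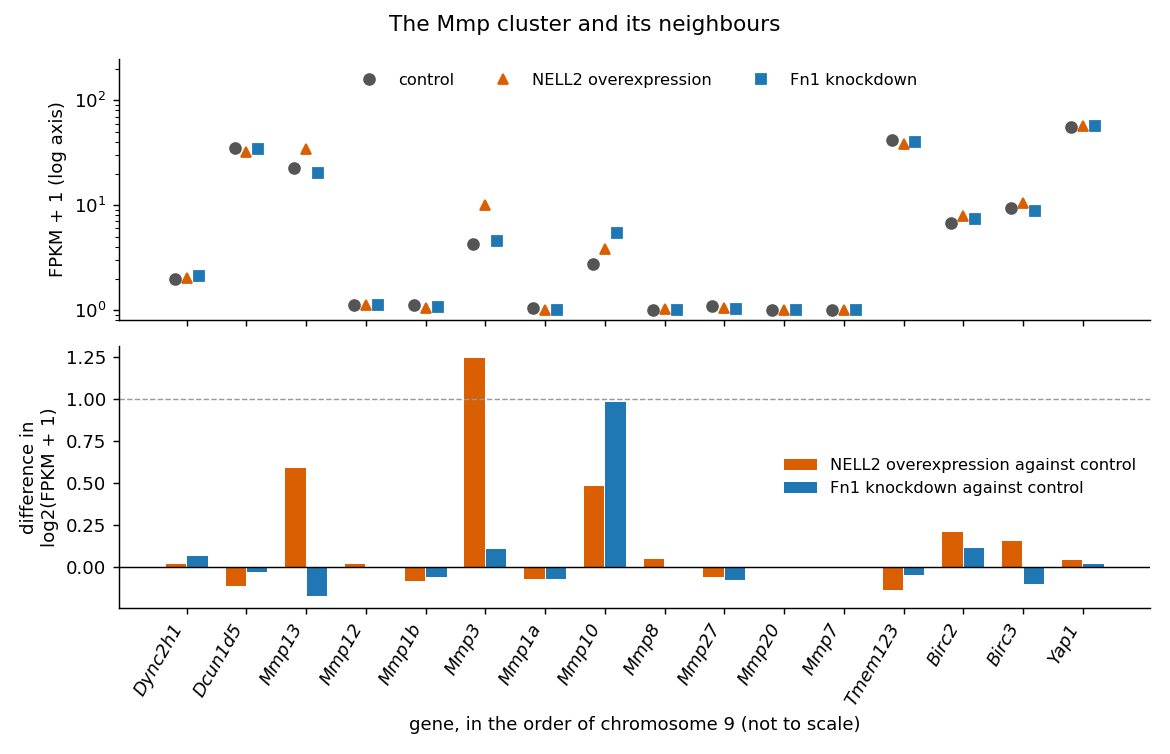
Levels (top, FPKM + 1 on a log axis, 1 point per library) and differences in log2(FPKM + 1) from the control (bottom, dashed line at 2-fold) of the 10 Mmp genes of the chromosome 9 cluster and 6 listed neighbours, in gene order. Mmp13, Mmp3 and Mmp10 are the genes of the cluster above 1 FPKM, and their NELL2 bars (0.59, 1.24 and 0.48) are higher than those of the 6 neighbours, which end at 0.21.

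Outside the cluster, Mmp2 lies on chromosome 8 (92827291 to 92853420), Mmp9 on 2 (164940780 to 164955850), Mmp14 on 14 (54431612 to 54445364) and Mmp19 on 10 (128790910 to 128800824). Timp3 is also on 10 (86300372 to 86349506), Timp2 on 11 (118301069 to 118355740, minus strand) and Timp1 on X (20870166 to 20874735). Timp1 and Timp3 both lie inside synapsin genes on the opposite strand, Syn1 and Syn3.

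The table held 17 other MMP and TIMP genes, of which 5 reached 1 FPKM and none was called in any comparison. Over all genes tested, 0.652% were called with NELL2 overexpression, 1.23% with Fn1 knockdown and 1.29% in the direct comparison. Mmp16, a membrane-type MMP, was at 17.0 FPKM in control cells, 18.1 after NELL2 overexpression and 26.7 with Fn1 knockdown (log2 difference 0.63). Mmp23 was at 25.2, 24.4 and 23.4 FPKM, Mmp11 at 5.63, 5.42 and 5.15, Mmp28 at 1.98, 1.85 and 2.05, and Mmp15 at 0.938, 0.839 and 1.15. Mmp16 was the only one of these 5 past 1.5-fold, in the Fn1 knockdown comparison, where 6.24% of all genes passed.

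Related proteinases of the ADAM and ADAMTS families, which shed cell-surface proteins and cut proteoglycans, were read from a list of 28 genes, 18 of them at 1 FPKM or more. None was called with NELL2 overexpression and 1 with Fn1 knockdown, where 0.652% and 1.23% of all genes tested were. With 18 genes, such counts lie near those shares. The called gene was Adamts12, at 0.815 FPKM in the control and 2.99 FPKM in the knockdown (log2 difference 1.14). At such low FPKM the ratio depends on the pseudocount. The aggrecanases Adamts1 (12.0 to 21.5 FPKM, 0.79) and Adamts5 (7.33 to 12.6 FPKM, 0.71) and Adam12 (14.6 to 23.5 FPKM, 0.65) were also higher with Fn1 knockdown. The aggrecanase Adamts4 was near the control (2.37 to 2.24 FPKM, -0.05), and Adamts2 (-0.38), Adamts7 (-0.25) and Adamts10 (-0.21) were lower. Of the 18 genes, 12 were above the control with Fn1 knockdown and 6 below, where 6302 and 6429 of 12733 genes were. Adam17, the TNF-alpha sheddase, was highest in the control, at 18.8 FPKM, with 12.8 after NELL2 overexpression and 12.1 with Fn1 knockdown. Both of its differences rest on the same 1 control library. The list median was 0.04 with NELL2 overexpression and 0.20 with Fn1 knockdown. The latter moved with the settings, to 0.31 when genes below 5 FPKM were left out, 0.053 with no filter and 0.088 with a pseudocount of 5.

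Activators, inhibitors and surface partners of MMPs, chiefly the plasminogen system, had 18 of 22 genes at 1 FPKM or more and none called. The share called over all genes was 0.652% with NELL2 overexpression and 1.23% with Fn1 knockdown, so a count of none lies near it. With Fn1 knockdown, the urokinase receptor Plaur was at 100.5 FPKM against 55.9 FPKM in the control (log2 difference 0.84). The integrin subunit Itgav was at 33.5 against 21.3 FPKM, and the plasminogen activator Plat was lower, at 27.2 against 36.4 FPKM. With NELL2 overexpression Plaur was nearer the control, at 52.3 FPKM. The list medians were 0.04 and 0.10.

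Transcription factors known at MMP promoters (AP-1, ETS, RUNX, NF-kB and others) had 24 of 25 genes at 1 FPKM or more. None was called, and none passed 1.5-fold in any of the 3 comparisons. Over all genes, 2.59% passed 1.5-fold with NELL2 overexpression, 6.24% with Fn1 knockdown and 6.4% in the direct comparison. The shares called were 0.652%, 1.23% and 1.29%. With 24 genes, a count of none lies near these shares. With NELL2 overexpression the AP-1 gene Junb was at 48.1 FPKM against 40.4 FPKM in the control, and Ets1 at 10.9 against 14.3 FPKM. With Fn1 knockdown Egr1 was at 13.0 against 17.6 FPKM. The medians were 0.04 and -0.02. These are transcript levels, and the activity of the factors was not measured.

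Cytokines, prostaglandin enzymes and receptors known to induce MMPs had 23 of 28 genes at 1 FPKM or more. None was called with NELL2 overexpression, where 0.652% of all genes were. Of those 23, 20 were above the control with NELL2 overexpression and 16 with Fn1 knockdown, where 6653 and 6302 of 12733 genes were, and 11 were higher in the Fn1 knockdown than in the NELL2 overexpression library. The cytokine Lif was at 6.99 FPKM in control cells, 11.8 after NELL2 overexpression and 7.40 with Fn1 knockdown, and Ptgs2, the inducible cyclooxygenase, at 147, 182 and 160 FPKM. The growth factor Fgf2 was at 1.62, 3.98 and 7.06 FPKM. It was the 1 gene of the list called with Fn1 knockdown (log2 difference 1.62), where 1.23% of all genes were. At such low FPKM the ratio depends on the pseudocount. Fgf2 exons overlap Gm43439 on the same strand and Nudt6 on the other, so its share of the reads is uncertain. The list medians were 0.13 with NELL2 overexpression and 0.14 with Fn1 knockdown.

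**Figure D5:**
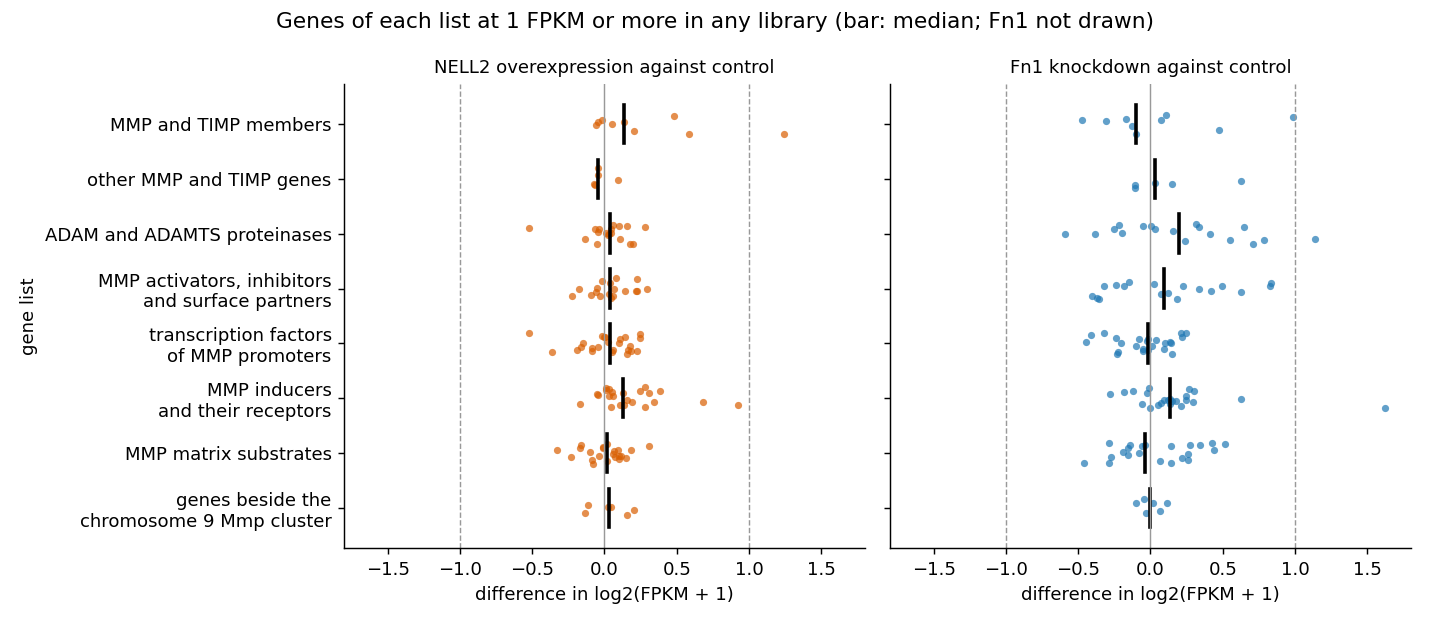
Differences in log2(FPKM + 1) from the control for the genes of each list at 1 FPKM or more in any library, 1 point per gene, with a bar at the list median and dashed lines at 2-fold; Fn1, the siRNA target, is not drawn. With NELL2 overexpression 1 gene passes the line, Mmp3, and with Fn1 knockdown 2 do, Adamts12 and Fgf2.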

How the data were processed

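RNA from 3 ST2 libraries was enriched for polyadenylated transcripts and sequenced as 150-base paired ends on an MGISEQ-2000. The authors deposited 1 FPKM value per gene and library, and the submitters' processing notes name HISAT2, DESeq and GRCm38. The program that computed FPKM, the annotation and the use of strand are not given in the sources used here. Because FPKM are not counts and each group had 1 library, no test was run. Samples were grouped by the labels.

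The 10 genes and all lists were chosen with earlier results of these data known. Named genes were the 10, other MMP or TIMP genes at 1 FPKM or more, called genes of each list and otherwise up to 4 with the largest log2 ratio at 10 FPKM or more, the 5 genes nearest to Mmp3, and Nell2 and Fn1. Log2(FPKM + 1) was compared between libraries; a gene was called at 2-fold or more with at least 1 FPKM in either library. Depth was estimated from low FPKM of single-transcript genes of 600 bases or more, and between 23.7% and 24.4% of those values lay within 0.02 of a whole fragment, so fragment numbers are only approximate and no whole reads could be recovered. Ratios of estimated fragments carry exact 95% intervals for counting error only. Alternatives were pseudocounts of 0.1 and 5, a filter of 5 FPKM or none, a 1.5-fold cutoff, TPM computed from FPKM, and median-of-ratios factors. Gene names occurred on more than 1 row for 187 rows, none of them a member. Positions are from GENCODE M21. Python 3.11.15, pandas 2.3.3, numpy 2.4.6 and scipy 1.17.1 were used, and the calling step was tested on simulated data. Some genes that this rule would name are not reported here.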

Additional observations from a re-analysis of the deposited data

How the results depend on the processing

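With 1 library per group no library could be left out. No paired analysis was possible because the groups hold 1 library apiece. A filter or another cutoff leaves a ratio as it is, so only 4 settings (pseudocounts of 0.1 and 5, TPM and median-of-ratios factors) could move the log2 ratios of the 10 genes. Of the 120 ratios under these 4 settings, 116 kept their side of the 2-fold line, 4 crossed it (Mmp3 and Mmp10, 2 each) and none changed sign. With a pseudocount of 5, no gene was called in NELL2 overexpression against control or in Fn1 knockdown against NELL2 overexpression (0 in each, since Mmp3 was then at 0.77 and -0.71). A 1.5-fold cutoff called 2, 1 and 3 genes in NELL2 overexpression against control, Fn1 knockdown against control and the direct comparison. In Fn1 knockdown against control, 1 gene, Mmp10, was called with a pseudocount of 0.1, with TPM, and with a pseudocount of 0.1 and no filter, a setting chosen after seeing the data. A larger pseudocount shrinks ratios of low genes by its construction.

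Among medians in Fn1 knockdown against control, the ADAM and ADAMTS list moved from 0.20 to 0.088 with a pseudocount of 5, to 0.31 with a filter of 5 FPKM and to 0.053 with no filter, and the other MMP and TIMP genes from 0.03 to -0.11 with a filter of 5 FPKM. In the direct comparison the filter of 5 FPKM gave -0.059 in place of 0.09 for the other MMP and TIMP genes and 0.28 in place of 0.11 for the ADAM and ADAMTS list, a pseudocount of 0.1 with no filter gave -0.0074 for the former, and no filter gave -0.23 for the 10 genes in place of -0.33 for the 9 at 1 FPKM or more. No filter for medians was also chosen after seeing the data. A filter changes which genes enter a list median, and any other cause of these moves was not tested.

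Over all genes, pseudocounts of 0.1 and 5 called 178 and 26 in place of 82 with NELL2 overexpression, 358 and 50 in place of 155 with Fn1 knockdown, and 353 and 46 in place of 162 in the direct comparison. TPM called 210, 343 and 373, a pseudocount of 0.1 with no filter 1297, 1594 and 1549, and a filter of 5 FPKM 47 with NELL2 overexpression. Depth limits the genes below 10 FPKM most, as the counting intervals of Mmp10 and Mmp3 show.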

Other observations

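Of 24 matrix substrates of MMPs, 23 reached 1 FPKM, and Fn1 itself was the 1 gene called, with its own siRNA. Across all genes tested, 0.652% were called with NELL2 overexpression and 1.23% with Fn1 knockdown. The list median was 0.02 with NELL2 overexpression and -0.04 with Fn1 knockdown. With Fn1 knockdown, tenascin C (Tnc) was at 398 FPKM against 278 FPKM in the control, osteopontin (Spp1) at 2727 against 2008 FPKM, Col5a2 at 412 against 306 FPKM and biglycan (Bgn) at 664 against 912 FPKM. With NELL2 overexpression decorin (Dcn) was at 71.7 against 57.8 FPKM.

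The genes whose 2 log2 ratios lay nearest to those of Mmp3, by Euclidean distance among 12704 genes, were Fam109a, Usp50, Gm28551, Krcc1 and Ube2l6, at distances of 0.0887 to 0.182. Ube2l6, an interferon-inducible conjugating enzyme for ISG15, was at 50.4 FPKM in control cells, 119 FPKM after NELL2 overexpression and 47.9 FPKM with Fn1 knockdown, and Krcc1 at 9.37, 21.7 and 9.21 FPKM. Usp50 and Gm28551 were below 0.05 FPKM in the control, and their exons overlap other genes on the same strand (Gm10774 for Usp50, Asnsd1 and others for Gm28551).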
